A study of Mus musculus with 8 samples.

Results

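The subunit genes of the cytosolic chaperonin CCT were examined in RNA from mouse peripheral retina. They are Tcp1, Cct2, Cct3, Cct4, Cct5, Cct6a, Cct7 and Cct8, taken by symbol from the gene count tables. These are 8 of the 23284 genes in the tables, and all 8 were among the 15106 genes with enough reads to test. The libraries came from peripheral retina microdissected on postnatal day 12. In 4 libraries, labelled Rbnull, Cre recombinase under the Pax6 alpha enhancer acts on floxed Rb alleles, the mouse retinoblastoma tumour suppressor gene. The other 4, labelled RbnullTET-MYCN, carry the same Cre together with Rosa26LSL-RTTA, a Cre-dependent tetracycline transactivator, and the TRE-MYCN transgene that it can switch on. The design text does not name the floxed Rb alleles again for this group, although its genotype label does call it Rb null. Neither doxycycline nor a separate animal per library is mentioned in the sources used here. The p-values therefore measure the spread between libraries, which may not be the spread between animals. Because the enhancer directs Cre to part of the developing retina, the dissected tissue can also hold cells without recombination.

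CCT, also called TRiC, is a ring-shaped ATP-driven folding machine of the cytosol, built from distinct but related subunits. Newly made actin and tubulin, which fold poorly alone, are its best known substrates, and many beta-propeller proteins also need it. In the retina it is known for folding the beta subunit of transducin, the G protein of phototransduction, with the help of phosducin-like protein. Within the ring, the subunits encoded by Tcp1, Cct2, Cct4 and Cct5 bind ATP more tightly than those encoded by Cct3, Cct6a, Cct7 and Cct8.

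The start regions of the members were searched for binding motifs of factors tied to growth and stress, and the 3 stretches that held one are shown for orientation. RefSeq's table (GRCm38.p6) has 9 windows of 300 bases for 7 of the members and none for Cct4. Each window runs from 250 bases before to 50 bases after an annotated start, and the table has 32851 windows in all. Both strands were searched for CACGTG, the E-box bound by MYC family proteins, for GAANNTTC, the core of the heat shock element, and for TTTGGCGC and TTTCGCGC, forms of the E2F site. The 3 stretches of 30 bases below have the motif in capitals, 5′ to 3′ on the strand of the member.
Cct2, chr10:117063399-117063428, minus strand: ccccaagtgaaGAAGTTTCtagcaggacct
Cct3, chr3:88296900-88296929, plus strand: actgcccgtgcTTTGGCGCttgcgcagaca
Tcp1, chr17:12916260-12916289, plus strand: ccgttttccacTTTCGCGCctttcttctac

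The heat shock core began 42 bases before one of the Cct2 starts, in no annotated exon (GENCODE vM21). The E2F forms began 224 bases before the Cct3 start and 58 bases before the Tcp1 start. Those stretches overlap an annotated exon on the other strand, of Tsacc and of Mrpl18 respectively. The E-box was in 0 of the 9 member windows, against 7.15% of all windows. The heat shock core was in 1 of the 9 against 7.86% of all windows. The forms TTTGGCGC and TTTCGCGC were each in 1 of the 9, against 0.514% and 0.323%. The member windows held 55.3% to 67.7% G and C, apart from a Cct5 window at 47.3%, and the median of all windows was 52.7%. Windows of like composition were not compared, so these shares do not show an excess of the motifs. A match describes letters in these windows, and nothing about binding was measured.

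Each library had between 14872131 and 22873979 reads counted in genes. Levels are given as CPM (reads of a gene relative to all reads counted in genes) after TMM scaling, which adjusts for differences in library composition. Mouse Mycn stood at 231 ± 95 CPM in the Rbnull libraries and 242 ± 37.6 CPM in the RbnullTET-MYCN libraries (SD, n = 4 each). Rb1 stood at 161 ± 21.9 and 154 ± 23.6 CPM. Neither gene is a strong check of the labels, because reads of a MYCN transgene may be missed at mouse Mycn, and a recombined Rb1 allele may still be transcribed over most of its exons. All 14 rod markers of the labelled tissue were measured, and none was at 0. Their summed level was 4431 to 20720 CPM in the Rbnull libraries and 3139 to 7558 CPM in the RbnullTET-MYCN libraries. Lens genes summed to 362 and 719 CPM in Rbnull libraries 2 and 3, and to at most 142 CPM in the other libraries. In bulk RNA, fewer cells of a type and less RNA per cell cannot be told apart.

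All 8 subunit genes had a higher mean in the RbnullTET-MYCN libraries, by 1.09-fold for Cct4 to 1.25-fold for Cct2, and none passed the test over all genes. The summed level of the subunits was 1578, 1523, 1458 and 1594 CPM in Rbnull libraries 1 to 4. It was 1814, 1550, 1937 and 1863 CPM in RbnullTET-MYCN libraries 1 to 4. Of the latter, 3 lay above every Rbnull library, and library 2 lay within the Rbnull range. The members' median log2 fold change was 0.23, where the median of all genes tested was 0.01 and 52.2% of them were positive.

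**Figure D1:**
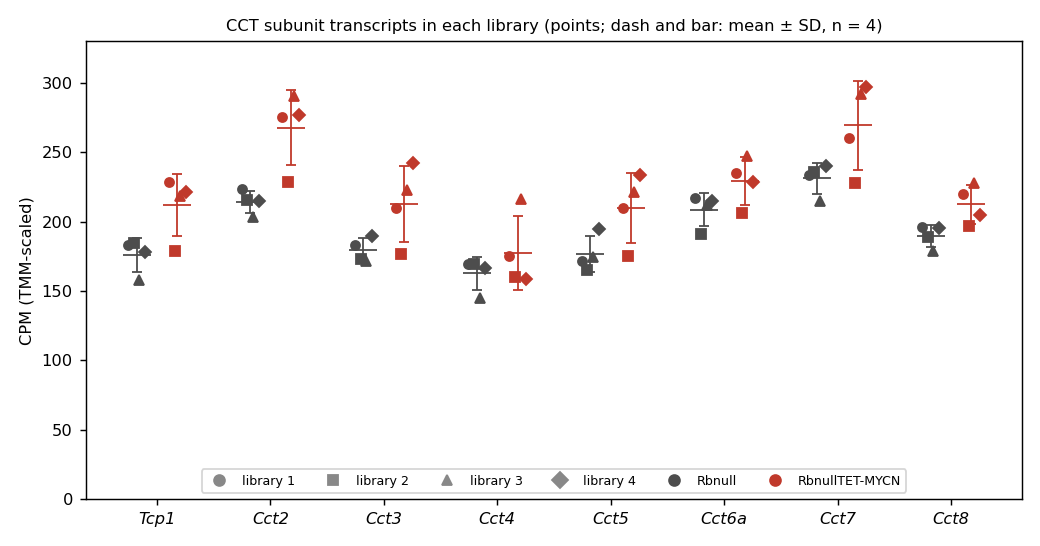
Level of each CCT subunit gene in CPM (y axis) for the 4 Rbnull libraries (grey) and the 4 RbnullTET-MYCN libraries (red), with the library number given by the marker shape; dashes and bars are the mean and SD. RbnullTET-MYCN library 2 (red squares) is the lowest of its group for 7 of the 8 genes, and the groups are fully apart only for Cct2 and Cct8.

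Among the subunits that bind ATP tightly, Cct2, the beta subunit, had the largest difference. It stood at 223, 215, 203 and 215 CPM in Rbnull libraries 1 to 4 and at 275, 229, 290 and 277 CPM in RbnullTET-MYCN libraries 1 to 4. Every RbnullTET-MYCN library was above every Rbnull library, although library 2 was above the highest of them by little. The means were 214 ± 8.22 and 268 ± 27.0 CPM. The log2 fold change was 0.32 ± 0.10 (SE, 95% interval 0.10 to 0.55), with an unadjusted p of 0.00986 and an adjusted p of 0.202 by edgeR's quasi-likelihood test. In people, inherited changes of the beta subunit have been linked to early-onset retinal degeneration.

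Tcp1, the alpha subunit and the first of the family to be found in mouse, stood at 183, 184, 158 and 178 CPM in the Rbnull libraries. Its RbnullTET-MYCN values were 229, 179, 219 and 221 CPM, so 3 libraries were above the whole Rbnull range and library 2 was inside it. The means were 176 ± 12.3 and 212 ± 22.4 CPM, a log2 fold change of 0.27 ± 0.11 (unadjusted p = 0.0315 and adjusted p = 0.276, edgeR's quasi-likelihood test). Tcp1 shares 571 exon bases with Acat3 and 141 with Mrpl18, both on the other strand (GENCODE vM21). Acat3 had 0.804 and 0.654 CPM in the groups, and Mrpl18 53.0 and 58.7 CPM.

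Cct5, the epsilon subunit, stood at 172, 165, 175 and 195 CPM in the Rbnull libraries and at 210, 175, 221 and 234 CPM in the RbnullTET-MYCN libraries. Again 3 RbnullTET-MYCN libraries were above the Rbnull range, and library 2 was inside it. The log2 fold change was 0.25 ± 0.11 (unadjusted p = 0.0497 and adjusted p = 0.316, edgeR's quasi-likelihood test).

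Cct4, the delta subunit, did not follow the others in RbnullTET-MYCN library 4. Its values were 169, 170, 145 and 167 CPM in the Rbnull libraries and 175, 160, 216 and 159 CPM in the RbnullTET-MYCN libraries. Only libraries 1 and 3 were above the Rbnull range, and library 4, the lowest of its group for Cct4, was the highest of all 8 for Cct3, Cct5 and Cct7. The log2 fold change was 0.13 ± 0.12 (95% interval -0.14 to 0.39), with an adjusted p of 0.657 by edgeR's quasi-likelihood test. Without RbnullTET-MYCN library 3 the value was 0.02.

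Among the subunits that bind ATP less tightly, Cct8, the theta subunit, was the other gene whose groups did not overlap. It stood at 196, 189, 179 and 196 CPM in the Rbnull libraries and at 220, 197, 228 and 205 CPM in the RbnullTET-MYCN libraries. The gap between the groups was narrow, with the lowest RbnullTET-MYCN value (library 2) just over the highest Rbnull value. The log2 fold change was 0.16 ± 0.09 (95% interval -0.04 to 0.36), with an adjusted p of 0.409 by edgeR's quasi-likelihood test. Cct8 shares 192 exon bases with Usp16 on the other strand, which stood at 49.9 and 49.5 CPM.

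Cct3, the gamma subunit, stood at 183, 173, 171 and 190 CPM in the Rbnull libraries and at 210, 177, 223 and 242 CPM in the RbnullTET-MYCN libraries. Cct7, the eta subunit, stood at 234, 236, 215 and 240 CPM and at 260.1, 228, 292 and 297 CPM in the same order. For both genes RbnullTET-MYCN libraries 1, 3 and 4 were above the Rbnull range and library 2 was inside it. The log2 fold changes were 0.25 ± 0.11 for Cct3 and 0.22 ± 0.11 for Cct7. Cct7 shares 214 exon bases with Pradc1 on the other strand, a symbol with no row in the tables.

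Cct6a, the zeta subunit, stood at 217, 191, 212 and 215 CPM in the Rbnull libraries and at 235, 206, 248 and 229 CPM in the RbnullTET-MYCN libraries. Libraries 1, 3 and 4 of the latter were above the Rbnull range. The log2 fold change was 0.14 ± 0.10 (95% interval -0.08 to 0.35). Cct6a shares 452 exon bases with Psph on the other strand, which stood at 28.7 and 29.1 CPM and had a log2 fold change of 0.02. Cct6b, its close relative known from testis, had 0.302 and 0.457 CPM, and Cct8l1, a relative of Cct8, had 0.188 and 0.202 CPM. Both relatives were too low to test.

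By edgeR's quasi-likelihood test with Benjamini-Hochberg adjustment at 0.05 over all genes, 0 of the 8 members were called higher, and 0.0530% of all genes tested were. At an unadjusted p under 0.05, 3 of the 8 (Tcp1, Cct2 and Cct5) were higher, where 8.06% of all genes were. Groups that did not overlap, with the RbnullTET-MYCN libraries higher, were found for 2 of the 8 and for 4.36% of all genes. DESeq2 called none of the 8 and 2.14% of all genes higher. DESeq2 gave 4 of the 8 an unadjusted p under 0.05 with higher values, where 8.41% of all genes had one, and its smallest adjusted p was 0.0563, for Cct2. The members' adjusted p ran from 0.202 to 0.657 with edgeR's quasi-likelihood test.

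**Figure D2:**
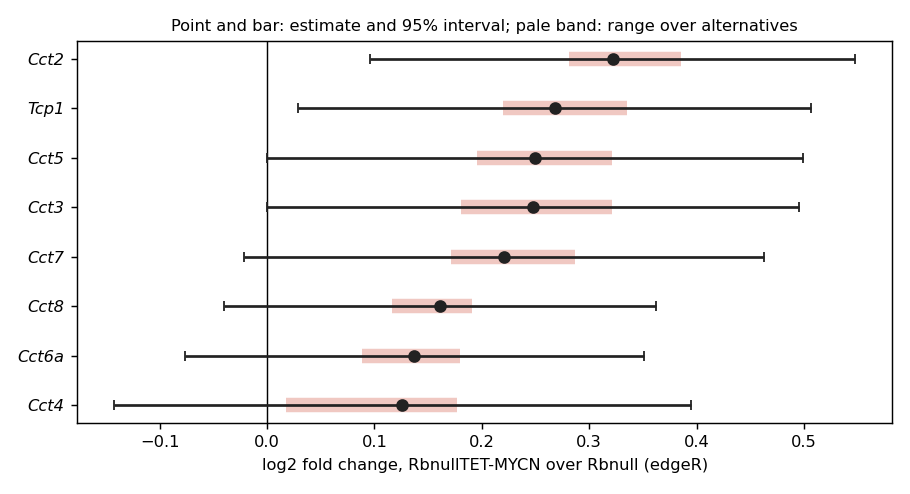
Log2 fold change of each subunit gene (x axis), RbnullTET-MYCN over Rbnull, with its 95% interval (bar) and the range over the 18 alternative settings (pale band). All estimates are above 0, from 0.13 for Cct4 to 0.32 for Cct2, and the intervals of Cct3, Cct4, Cct6a, Cct7 and Cct8 reach below 0.

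RbnullTET-MYCN library 2 was the library of its group nearest to the Rbnull libraries in summed CCT level. It was the lowest of its group for 7 of the 8 members, all but Cct4, and it was within the Rbnull range for 6. It was also the most deeply sequenced library, with 35830 reads on the 8 genes, where RbnullTET-MYCN library 4 had 36991. Without RbnullTET-MYCN library 2, 7 of the 8 members (all but Cct4) had groups that did not overlap, where 8.12% of all genes did. This library was singled out for its low values in these same genes, which favours such a count. The count is therefore only a description. The log2 fold changes without library 2 ran from 0.17 to 0.39, with a median of 0.30. Cct2 then stood at 0.39 ± 0.09 with an adjusted p of 0.0950 by edgeR's quasi-likelihood test, and none of the 8 passed. Leaving out any other single library left the groups of 2 members without overlap, where 4.78% to 11.9% of all genes were higher without overlap. The members' median log2 fold change, 0.23 with all libraries, was 0.18 without RbnullTET-MYCN library 4 and 0.20 without RbnullTET-MYCN library 3.

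**Figure D3:**
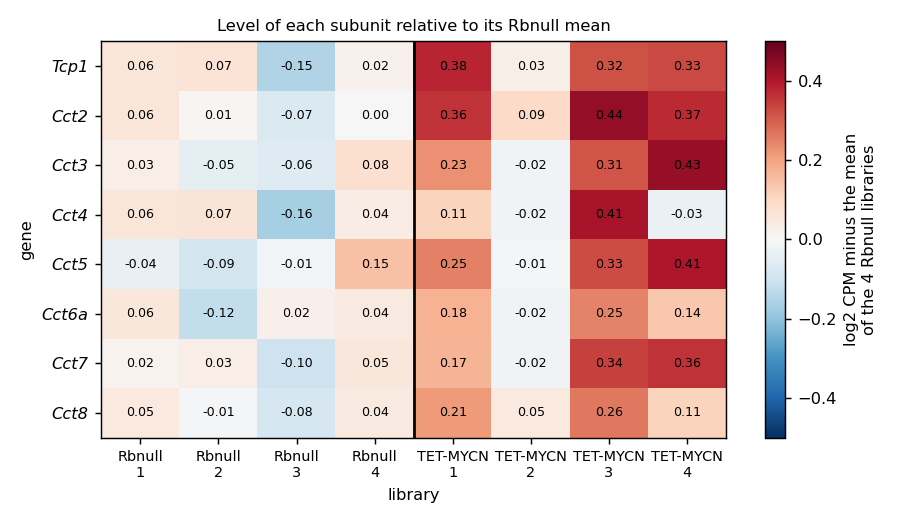
Log2 CPM of each subunit gene (rows) in each library (columns), minus the mean of the 4 Rbnull libraries; red is higher and blue lower. RbnullTET-MYCN library 2 lies between -0.02 and 0.09 for every subunit, Rbnull library 3 is the lowest Rbnull library for 6 of the 8, and Cct4 in RbnullTET-MYCN library 4 is at -0.03 while Cct3 in that library is at 0.43.

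The subunit genes varied more among the RbnullTET-MYCN libraries than among the Rbnull libraries. The coefficient of variation (SD over mean) was 3.84% to 7.38% in the Rbnull group, with a median of 5.26%. It was 6.7% to 15.1% in the RbnullTET-MYCN group, with a median of 11.2%, and was larger there for 8 of the 8 genes. This is a description, and the difference in spread was not tested or compared with that of all genes. The subunit genes varied together across the libraries, so they are not separate observations of it.

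The subunits assemble into one complex, so their levels relative to each other were compared as CPM per kilobase of transcript. Main transcript lengths from GENCODE vM21 were used, from 1853 bases for Cct5 to 2484 bases for Cct4. For Cct6a no transcript was found marked as coding, so its longest annotated transcript (2454 bases) was taken, and its place in the order is less certain. Cct2 was the highest of the 8 in every library and Cct4 the lowest. On this scale Cct2 stood at 109 ± 4.2 in the Rbnull and 137 ± 13.8 in the RbnullTET-MYCN libraries, and Cct4 at 65.5 ± 4.83 and 71.4 ± 10.8. Between them in the Rbnull libraries, Cct5 (95.3 ± 6.94), Cct7 (94.7 ± 4.59) and Cct3 (90.7 ± 4.38) each differed from the next in this order by less than the SD of either. Cct6a (85.0 ± 4.82), Cct8 (79.3 ± 3.32) and Tcp1 (71.9 ± 5.01) came next, and each step in the order from Cct3 down to Cct4 was somewhat larger than the SD of either neighbour. The highest subunit was 1.61 to 2.21 times the lowest within a library. With the longest annotated transcript, Cct2 was still the highest, whereas the lowest was Tcp1, Cct3 or Cct4 depending on the library.

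Of the summed per-kilobase level, Cct2 made up 15.8% ± 0.39 in the Rbnull and 16.9% ± 0.214 in the RbnullTET-MYCN libraries. The shares of Cct4 were 9.46% ± 0.473 and 8.85% ± 1.02. Relative to the mean log2 level of the 8 subunits in its own library, Cct2 was at 0.12 to 0.19 in the Rbnull libraries and at 0.25 to 0.29 in the RbnullTET-MYCN libraries. It was the only subunit (1 of 8) whose relative level did not overlap between the groups, and RbnullTET-MYCN library 2, at 0.25, was no exception. This measure exists only for the 8 members, so no share over all genes can be set beside it. Cct2 also had the largest log2 fold change of the 8, so its relative level is a description, and a shift between subunits was not tested. Cct4 in RbnullTET-MYCN library 4 was at -0.53 on this scale, the lowest relative value of any subunit in any library.

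Across the 8 libraries the subunit genes varied together. Pearson's r of log2 CPM over the 28 pairs of members had a median of 0.826, from 0.419 (Cct4 and Cct5) to 0.969 (Cct3 and Cct5). Spearman's rho had a median of 0.726. Deviations from the group means had a median Pearson's r of 0.72, so the members also varied together inside the groups. Cct2 was closest to the other members (r = 0.967 with their mean) and Cct4 was farthest (0.63). Without RbnullTET-MYCN libraries 3 and 4, which were farthest from the median sum, the median r was 0.824 and the lowest 0.212 (Cct4 and Cct6a). The pattern was not particular to the subunits. Ranked among 12339 genes by r with the mean standardised level of the 8 members, Cct2 was at rank 24 and Cct4 at rank 1211. The remaining members were at ranks 83 (Cct7) to 286 (Cct6a), although the members themselves make up that mean. All these values share the same libraries and their depth, so they are given as a description.

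The genes whose pattern over the 8 libraries was most like the mean standardised level of the subunits were sought next. Among 12331 other genes with a mean of at least 5 CPM, the 8 with the highest Pearson's r were Rps24, Rpl9, Rps27a, Arpc3, Rpl21, Rpl39, Rps25 and Rpl38. They had r between 0.987 and 0.991, and 7 of the 8 encode ribosomal proteins, whose symbols (Rpl and Rps, without the Rps6k kinases) make up 0.649% of the genes searched. The other, Arpc3, encodes a subunit of the actin-nucleating Arp2/3 complex. Rps24, the first of them, stood at 303, 291, 266 and 344 CPM in the Rbnull libraries and at 475, 314, 526 and 463 CPM in the RbnullTET-MYCN libraries. This gene was chosen for its likeness to the subunits, so its order over the libraries is a description. Its log2 fold change was 0.56 ± 0.16 (adjusted p = 0.181, edgeR's quasi-likelihood test), which is larger than that of any subunit. Ribosomal protein genes have many processed copies in the genome, so their counts are uncertain.

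The markers of cell types that the tissue could hold were set beside the subunits. All 22 cycling-cell markers were measured, none was at 0, and 22 of 22 lay above 0 in log2 fold change (median 0.38). None of them was called by edgeR's quasi-likelihood test, and 9 of the 22 were higher at an unadjusted p under 0.05, against the 8.06% of all genes given above. Their summed level was 4566, 5052, 2549 and 3709 CPM in Rbnull libraries 1 to 4 and 4175, 4586, 5300 and 5189 CPM in RbnullTET-MYCN libraries 1 to 4. Rbnull library 3 was the lowest of the 8 libraries and RbnullTET-MYCN libraries 3 and 4 were the highest, both for this sum and for the summed CCT level. The order between them differed, since Rbnull library 2 had 5052 CPM of cycling markers and 1523 CPM of CCT, and RbnullTET-MYCN library 1 had 4175 and 1814 CPM.

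The 12 retinal progenitor markers, none at 0, had 11 positive values and a median log2 fold change of 1.12, larger than that of the subunits. Of these, 9 were higher at an unadjusted p under 0.05, where 8.06% of all genes were. For 6 of them the groups did not overlap, with the RbnullTET-MYCN libraries higher, where this held for 4.36% of all genes. The summed level of the 12 was 309 to 670 CPM in the Rbnull and 519 to 705 CPM in the RbnullTET-MYCN libraries. Markers of photoreceptors and bipolar cells lay the other way, and none of these was at 0. All 14 rod markers (median -1.24, 9 lower at an unadjusted p under 0.05, where 7.72% of all genes were), all 10 cone markers (median -0.84) and all 10 bipolar cell markers were negative. At that threshold 2 of the cone markers and 6 of the bipolar cell markers were lower. The summed bipolar level was 1205 to 1777 CPM in the Rbnull and 932 to 1181 CPM in the RbnullTET-MYCN libraries. These sums did not overlap. For 1 rod, 1 cone and 4 bipolar cell markers the groups did not overlap, with the RbnullTET-MYCN libraries lower. The same held for 497 of the 15106 genes tested. Of the 10 ganglion cell markers and the 10 of endothelium and pericytes, 9 each were negative, and of the 12 of amacrine and horizontal cells 8 were positive. The 10 Müller glia markers, none at 0, summed to 5106 to 6743 and 4093 to 5619 CPM, with 7 negative. The 15 markers of microglia and macrophages, none at 0, summed to 221 to 471 and 274 to 1002 CPM, with 11 positive. Of these 15, 1 was called higher by edgeR's quasi-likelihood test, where 0.0530% of all genes were. At an unadjusted p under 0.05, 5 of them were higher, where 8.06% of all genes were. For 4 the groups did not overlap, with the RbnullTET-MYCN libraries higher, where this held for 4.36% of all genes. The part of these cell types in the CCT values was not tested. Without the Rbnull libraries richest in lens reads (2 and 3), the log2 fold changes of all 8 subunits were still positive, and 0 of the 8 had an unadjusted p under 0.05.

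**Figure D4:**
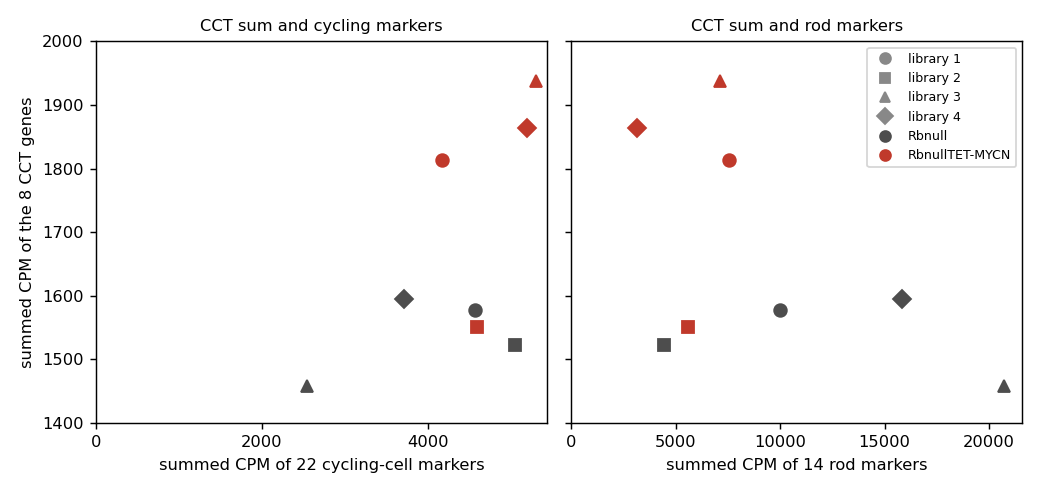
Summed CPM of the 8 CCT genes (y axis, which starts at 1400) against the summed CPM of 22 cycling-cell markers (left) and 14 rod markers (right), 1 point per library. RbnullTET-MYCN libraries 1, 3 and 4 are at 1814 CPM of CCT or more, and RbnullTET-MYCN library 2 is at 1550 CPM beside the Rbnull libraries.

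The partners that work upstream and downstream of CCT were examined next, from lists written for this question, and none of their genes was called by edgeR's quasi-likelihood test. Prefoldin, which hands unfolded actin and tubulin to CCT, had 5 of 6 subunit genes at log2 fold changes above 0, and its median was 0.10. The values were 0.04 for Pfdn1, 0.10 for Pfdn2, -0.03 for Vbp1, 0.37 for Pfdn4, 0.09 for Pfdn5 and 0.12 for Pfdn6 (listed as H2-Ke2), and 0 of the 6 had an unadjusted p under 0.05. Without RbnullTET-MYCN library 3 the median was -0.02. In the list of phosducin-like and other cofactors, 6 of 9 tested genes were positive (median 0.09). Of the 9, 2 were higher at an unadjusted p under 0.05, where 8.06% of all genes were. The 2 were Ruvbl2 (0.32 ± 0.12) and Ruvbl1 (0.24 ± 0.10), ATPases that work with a prefoldin-like complex. Pdrg1, a prefoldin-like gene, was at 0.13 ± 0.11, and Pdcl, phosducin-like protein itself, at -0.11 ± 0.09. The tubulin folding cofactors had 2 of 7 positive values, with a median of -0.02. Their values were 0.30 for Tbca, 0.01 for Tbcb, -0.22 for Tbcc, -0.02 for Tbcd, -0.14 for Tbce, -0.24 for Tbcel and -0.0003 for Arl2. The medians of the phosducin-like and other cofactors and of the tubulin cofactors were -0.0008 and -0.11 without RbnullTET-MYCN library 3.

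Of 21 actin and tubulin genes tested, 15 had a positive log2 fold change (median 0.08, and 0.15 without Rbnull library 2). At an unadjusted p under 0.05, 3 were higher and 1 was lower, where 8.06% and 7.72% of all genes were. The neuronal beta-tubulin gene Tubb2b stood at 83.3, 71.6, 50.9 and 62.5 CPM in the Rbnull libraries and at 196, 123, 94.0 and 192 CPM in the RbnullTET-MYCN libraries. The groups did not overlap, and its log2 fold change was 1.17 ± 0.24 (adjusted p = 0.151, edgeR's quasi-likelihood test). Tuba1a, an alpha-tubulin gene of growing neurons, was at 0.31 ± 0.11, Tubb6 at 0.50 ± 0.19 and Tuba4a at -0.61 ± 0.25. Near-identical coding sequences among tubulin genes make these counts uncertain.

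Of 22 genes listed as other substrates or their partners, 10 were positive (median -0.04). At an unadjusted p under 0.05, 2 were higher and 4 lower, where 8.06% and 7.72% of all genes were. Cdc20, the mitotic activator folded by CCT, stood at 0.73 ± 0.20, and Plk1, a mitotic kinase, at 0.45 ± 0.16, and both are also among the cycling-cell markers. Gnat1 and Gngt1 in this list are also rod markers, and Gnb3 is also a cone marker. Bbs7, a BBSome subunit of the photoreceptor cilium, was at -0.67 ± 0.17, and Gnb5, a G protein beta subunit of neurons, at -0.84 ± 0.32. The chaperonin-like genes that assemble the BBSome together with CCT were at -0.02 (Mkks), -0.11 (Bbs10) and -0.19 (Bbs12). The median of these was 0.05 without RbnullTET-MYCN library 4 and -0.26 without RbnullTET-MYCN library 3. Gnb1, the transducin beta subunit of rods, was added after its values were seen. It stood at 1385, 760, 2280 and 1818 CPM in the Rbnull libraries and at 1271, 1006, 1074 and 638 CPM in the RbnullTET-MYCN libraries, and the groups overlapped. By edgeR's quasi-likelihood test its log2 fold change was -0.65 ± 0.32 and its adjusted p 0.351. The rod marker sums overlapped between the groups too, since Rbnull library 2, at 4431 CPM, was below RbnullTET-MYCN libraries 1, 2 and 3. The part of rods in the substrate values was not tested.

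**Figure D5:**
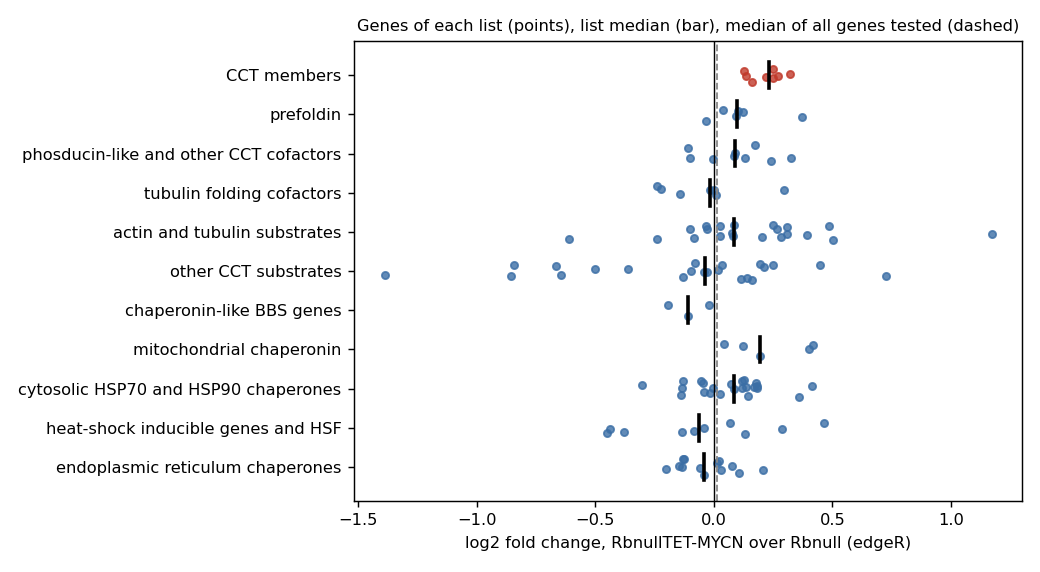
Log2 fold change of every tested gene (points) in the CCT subunit list and in each list of partners, substrates and other chaperones, RbnullTET-MYCN over Rbnull; bars are list medians and the dashed line is the median of all genes tested (0.01). The CCT subunits (median 0.23) and the mitochondrial chaperonin list (median 0.20) are the lists with every value above 0.

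Other chaperone systems were set beside CCT in the same way. In the mitochondrial chaperonin list 5 of 5 genes lay above 0 (median 0.20). Hspd1, the ring-forming chaperonin of mitochondria, stood at 184, 187, 169 and 180 CPM in the Rbnull libraries and at 282, 201, 224 and 242 CPM in the RbnullTET-MYCN libraries. Its groups did not overlap, library 2 was again the lowest of its group, and the log2 fold change was 0.40 ± 0.12 (adjusted p = 0.181, edgeR's quasi-likelihood test). Hspe1, its lid, was at 0.42 ± 0.14, Hspa9 at 0.20 ± 0.09, Trap1 at 0.12 and Grpel1 at 0.04.

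Of 23 cytosolic HSP70 and HSP90 chaperone genes, 14 were positive (median 0.08, and 0.04 without RbnullTET-MYCN library 3). Dnajc2, a ribosome-associated cochaperone, was at 0.42 ± 0.09 and Hsp90ab1, the constitutive cytosolic HSP90, at 0.36 ± 0.13, with groups that did not overlap for either. Hspa4l was at -0.30 ± 0.13 and Fkbp4 at 0.18 ± 0.11. Of 10 genes induced by heat shock or coding for its factors, 4 were positive (median -0.06, and -0.19 without RbnullTET-MYCN library 2). Bag3 was at 0.46 ± 0.18, Hspb8 at -0.45 ± 0.20, Hspb1 at -0.44 ± 0.21 and Dnajb1, which is in both lists, at -0.13. Of 13 endoplasmic reticulum chaperone genes, 6 were positive (median -0.04, and -0.07 without RbnullTET-MYCN library 1). Hspa5, the main HSP70 of that compartment, was at -0.14 ± 0.10, Dnajb11 at -0.15 ± 0.12, Pdia4 at -0.12 ± 0.10 and Hsp90b1, its HSP90, at -0.13 ± 0.10. No list was tested as a set, and whether the CCT subunits differ from these lists was not tested.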

How the data were processed

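The authors deposited 1 table of whole-number read counts per gene symbol for each of the 8 libraries, without normalization. Per the labels' protocols, messenger RNA was isolated from 500 ng total RNA with oligo-dT beads. Per the submitters' processing notes, CASAVA 1.8.2, TopHat2 2.0.8b, HTSeq 0.5.4p3 and the build mm9 were used. Which annotation was counted, and whether strand was used, is not given in the sources used here, and genes overlapping on opposite strands cannot be told apart. Reads that HTSeq assigned to no single gene (28.3% to 31.7% of each file) were left out.

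Groups came from the genotype labels. TMM scaling was used, and 15106 genes passed filterByExpr. The test was the quasi-likelihood F test of edgeR 4.0.16 (robust = TRUE, R 4.3.3) with the group as the only term. P-values were adjusted by the Benjamini-Hochberg method, with a threshold of 0.05. Log2 fold changes are RbnullTET-MYCN over Rbnull. Its ± is the standard error, and the ± of CPM is the SD over 4 libraries. A prior count of 2 was added before taking log2 CPM for correlations. A count of 3 equals 0.131 to 0.202 CPM, and the members had 2208 to 5894 counts per library. The procedure was tested on simulated counts. No libraries agreed within sampling noise. Alternatives were other scalings and filters, DESeq2 1.42.0, limma-voom (limma 3.58.1), a replicate block, libraries left out and, chosen after seeing the data, the other quasi-likelihood method of edgeR.

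The members and the gene lists were chosen with earlier results of these data known. Named genes are the 8 members, Mycn and Rb1, all genes of lists of up to 7 genes, otherwise the 4 with the smallest unadjusted p, the 10 genes most like the members, and near-copies and neighbours. Of the 10, 2 are not reported here. Gnb1 was added after its values were seen. Promoter windows came from RefSeq's table and transcript lengths from GENCODE vM21, both GRCm38, and no coordinates were joined to the mm9 counts. Plots used matplotlib 3.10.9 (Python 3.11.15).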

Additional observations from a re-analysis of the deposited data

Results flagged for a closer look

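Cct4 in Rbnull library 3 stood at 144.7 CPM, apart from the other 3 Rbnull libraries at 169, 170 and 167 CPM. Its gap to the nearest of them was 0.875 of the group's range, above the 95% critical value of Dixon's test for 4 samples. Of the 16 groups checked (8 subunits in 2 groups), this was the only one flagged, and chance flags about 1 in 20. The same library was the lowest Rbnull library for 6 of the 8 subunits.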

How the results depend on the processing

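Under the 18 alternatives, all 144 log2 fold changes of the 8 subunits were positive and 0 passed the test. Cct2 ranged from 0.28 to 0.39 and Cct4 from 0.02 to 0.18. Without Rbnull libraries 2 and 3, 0 members had an unadjusted p under 0.05, and without Rbnull 1 and RbnullTET-MYCN 3, the libraries with most multiply aligned reads, 1 did. Leaving out 1 library gave 1 to 5 such members, where 5.22% to 13.1% of all genes were higher at that threshold. It gave 2 to 7 members whose groups did not overlap, where 4.78% to 11.9% of all genes were higher without overlap. Replicate numbers did not pair the libraries (correlations of same-numbered deviations from -0.295 to -0.0402), and with the replicate block 1 member had an unadjusted p under 0.05. Over all genes, 8 were called higher and 1 lower. The counts were 14 and 3 with no filter, 323 and 207 with DESeq2, 0 and 0 with limma-voom, 3 and 0 with the replicate block, 0 and 0 without the lens-rich pair and 25 and 16 without the multiply aligned pair. Leaving out 1 library gave 0 to 176 higher and 0 to 54 lower, the most without RbnullTET-MYCN 3, and 106 and 26 without RbnullTET-MYCN 2. Genes whose groups did not overlap, higher, numbered 659. They numbered 1353 and 1860 without those pairs, and 730 to 1797 without 1 library. The cause was not tested. Other per-kilobase lengths moved the share of every subunit, that of Cct2 from 15.8% to 18.3%. The members had at least 2208 counts in every library.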
